A study of Equus caballus with 14 samples.

Results

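FCER1A, FCER2 and TPSB2 are the genes of the high-affinity IgE receptor alpha chain, the low-affinity IgE receptor CD23 and the mast cell protease beta-tryptase. They were located on an equine 1-colour Agilent array as the probes that carry the horse RefSeq transcript of each gene. They were 3 of 592 genes that could be named this way, and had 9 of the 43603 probes, with 2 for FCER1A (transcript NM_001099767), 6 for FCER2 (NM_001081807) and 1 for TPSB2 (NM_001081875). The arrays measured mediastinal lymph node RNA from 7 horses with recurrent airway obstruction (RAO, also called heaves) and 7 healthy control horses, all of mixed breed. Horses of both groups were stabled and fed dusty hay before the nodes were collected, so the groups differed in disease and not in exposure. The disease was naturally occurring, and the methods give the RAO-affected horses as older on average than the controls. Age and disease therefore cannot be told apart. The labels and the methods differ on the RNA integrity of 1 RAO-affected sample, and the methods do not name the horse.

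IgE bound to the high-affinity receptor arms mast cells and basophils. Cross-linking of that IgE by allergen releases histamine, proteases such as tryptase, and lipid mediators. The alpha chain encoded by FCER1A binds the antibody, and in several species it is also found on dendritic cells and monocytes. CD23, encoded by FCER2, is a lectin-like receptor that is abundant on resting follicular B cells and takes part in the control of IgE production. TPSB2 encodes a tryptase stored in mast cell granules, and its transcript is used as a marker of these cells.

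Each horse had 1 array. All values are log2 signals after quantile normalization, which gives every array the same distribution of signals, and a difference of 1 on this scale is a 2-fold change. Between 32696 and 39947 probes per array were well above background. Correlations between arrays were 0.923 to 0.991. The arrays lay on 4 slides, each with horses of both groups, and slide 1 (control horses 3 and 5, RAO-affected horse 4) was scanned 16 days after the others. Its arrays correlated least with the rest (mean r = 0.945, against 0.964 to 0.968 for the other slides). Group differences were therefore fitted with limma, two-sided and with a term for slide (blocked difference), over 38674 probes that exceeded background clearly on 4 or more of 14 arrays. All 9 probes passed this filter. In this fit an unadjusted p of at most 0.05 was found for 11.9% of the 38674 probes, and for 1.4% together with a difference of 2-fold or more. None passed Benjamini-Hochberg adjustment (0 of 38674, with 4599 at an unadjusted p of at most 0.05). None of the 9 probes met either unadjusted criterion, so no change in FCER1A, FCER2 or TPSB2 was shown with all 14 horses.

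FCER1A had the higher signal in RAO-affected horses on average. In its brighter probe (A_69_P000776) the RAO-affected horses ranged from 11.72 in horse 12 to 14.17 in horse 14, with a median of 12.79. The control horses ranged from 10.87 in horse 1 to 14.09 in horse 7, with a median of 11.82. The groups overlapped through control horse 7 and RAO-affected horse 12, while the other 6 RAO-affected horses lay above the other 6 controls. The RAO-affected mean was 12.92 ± 0.87 (SD, n = 7). The control mean was 11.88 ± 1.08 (SD, n = 7). With slide as a block the difference was 1.04 (SE 0.56, 95% interval -0.20 to 2.27), or 2.05-fold with an interval of 0.870- to 4.83-fold. The limma p was 0.0921 unadjusted and 0.471 adjusted over all probes tested. Permuting the group labels within slides gave an exact two-sided p of 0.133 over 324 arrangements, of which the smallest possible is 0.00309. Over all 3432 arrangements of the 14 horses, slides ignored, the exact p was 0.0752. In whole lymph node, more cells carrying FCER1A and more FCER1A transcript per cell cannot be told apart, and the same holds for the other genes here.

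The dimmer FCER1A probe (A_69_P000777) gave a blocked difference of 1.03, with a limma p of 0.103 unadjusted and 0.482 adjusted. Its values followed the brighter probe across the 14 horses (r = 0.993). The groups overlapped more in it, since RAO-affected horse 10 (11.15) also lay below control horses 11 (11.25) and 3 (11.17). The outcome at the unadjusted threshold depended on control horse 7, the highest control in both probes. Without it the blocked difference rose to 1.47 in the brighter probe, with a limma p of 0.00757 unadjusted and 0.486 adjusted. In the dimmer probe it rose to 1.45, with an unadjusted p of 0.0132. Control horse 7 stood out in these same values, so the fit without it does not show a change in FCER1A. In the 13 other fits that each left out 1 horse, the brighter probe stayed above an unadjusted p of 0.05. The array of control horse 7 also had the fewest saturated probes, 1439 against 1774 to 2613 on the others. The part of this in the result was not tested.

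**Figure D1:**
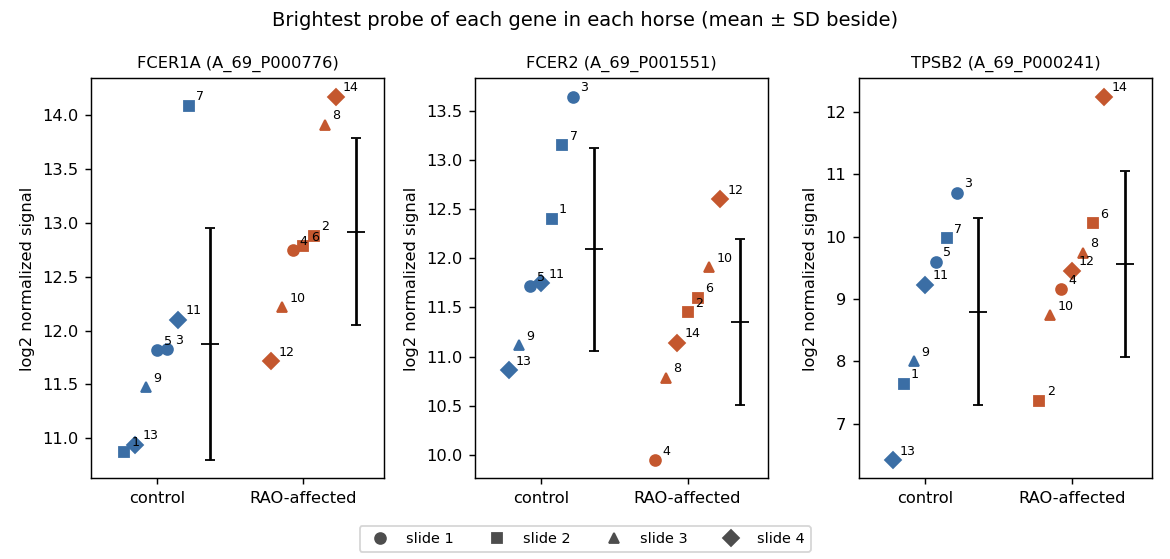
Log2 normalized signal (vertical axes) of the brightest probe of FCER1A, FCER2 and TPSB2 in each control (blue) and RAO-affected (orange) horse, numbered by horse and with a marker shape for each slide. Black bars give the group mean ± SD (n = 7). The groups overlap for all 3 genes, and for FCER1A control horse 7 (14.09) stands among the highest RAO-affected horses.

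FCER2 had the lower signal in RAO-affected horses on average. In its brightest probe (A_69_P001551) the RAO-affected horses ranged from 9.95 in horse 4 to 12.60 in horse 12, with a median of 11.45. The control horses ranged from 10.86 in horse 13 to 13.64 in horse 3, with a median of 11.75. The groups overlapped over most of their ranges, and 2 RAO-affected horses, 4 and 8, lay below every control. The RAO-affected mean was 11.35 ± 0.84 (SD, n = 7). The control mean was 12.09 ± 1.03 (SD, n = 7). The blocked difference was -0.70 (SE 0.52, 95% interval -1.85 to 0.44), which is 1.63-fold lower. Limma gave p = 0.201 unadjusted and 0.582 adjusted, and the exact two-sided permutation p was 0.238 within slides and 0.166 over all arrangements.

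The FCER2 difference depended on 2 horses of slide 1. Without RAO-affected horse 4 it was -0.20, and without control horse 3 it was -0.45. Horse 4 was the only RAO-affected horse on its slide, so leaving out the whole slide also gave -0.20.

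The 6 FCER2 probes separated into 5 bright ones and 1 dim one. The 5 bright probes differed by at most 0.32 in any horse, and their blocked differences lay between -0.73 and -0.67, with unadjusted limma p-values of 0.180 to 0.226. The brightest was spotted 5 times on each array, and the SD over those spots was 0.0116 to 0.0862 on the log2 scale (median 0.0476). This spot-to-spot error was far smaller than the SD of 0.84 and 1.03 between horses of a group. The dim probe (A_69_P003146) was well above background in only 2 RAO-affected and 4 control horses, and no direction was read from it.

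TPSB2 varied most between horses. Its single probe (A_69_P000241) ranged in RAO-affected horses from 7.37 in horse 2 to 12.24 in horse 14, with a median of 9.45. In control horses it ranged from 6.42 in horse 13 to 10.70 in horse 3, with a median of 9.23. Only RAO-affected horse 14 lay above every control, and none lay below every control. The probe was well above background on all 14 arrays and saturated on none, with processed intensities of 88.6 to 3602. The RAO-affected mean was 9.56 ± 1.49 (SD, n = 7). The control mean was 8.79 ± 1.50 (SD, n = 7). The blocked difference was 0.95 (SE 0.81, 95% interval -0.84 to 2.75), or 1.94-fold. It had an unadjusted limma p of 0.267 and an adjusted p of 0.641. The exact two-sided permutation p was 0.315 within slides and 0.358 over all arrangements. The difference was 0.41 without RAO-affected horse 14, also 0.41 without control horse 13, and 1.44 without RAO-affected horse 4.

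**Figure D2:**
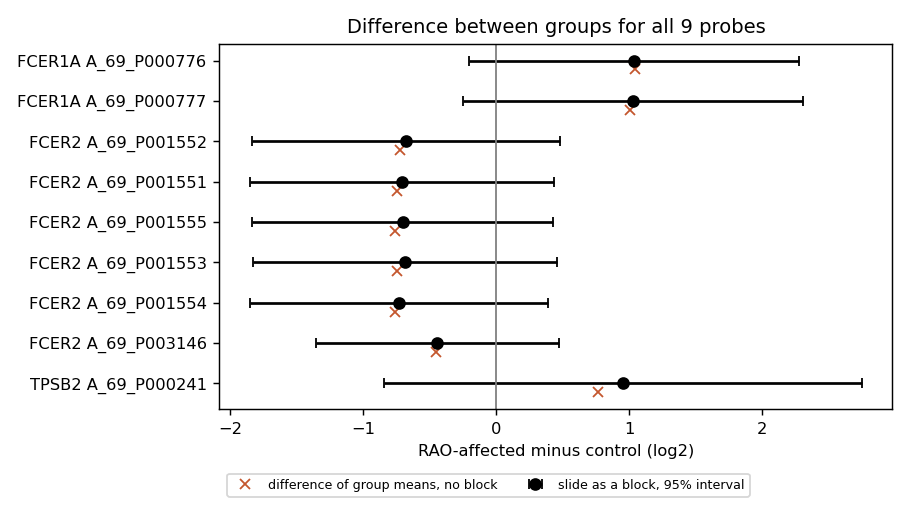
Difference in log2 signal between RAO-affected and control horses (horizontal axis) for all 9 probes. Black points are the limma estimates with slide as a block and their 95% intervals, and orange crosses are the plain differences of group means. Both FCER1A probes lie near 1.03, the 5 bright FCER2 probes between -0.73 and -0.67, and every interval crosses 0. The FCER2 probe A_69_P003146 was well above background on only 6 of 14 arrays, so its point is mostly background.

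The horses of each group differed widely in all 3 genes. Over the 14 horses the highest and lowest FCER1A signals were 9.85-fold apart, those of FCER2 12.9-fold and those of TPSB2 56.8-fold. The SD that remained after slide and group were fitted was 1.11 for FCER1A, 1.03 for FCER2 and 1.62 for TPSB2. Of the probes tested, 96.4% had a remaining SD no larger than that of FCER1A, 95.4% than that of FCER2 and 99.2% than that of TPSB2. The intervals of the differences are wide for this reason, and that of FCER1A includes both no change and a 4.83-fold increase. As a description of size, 2.16% of the probes tested had a blocked difference at least as large as FCER1A in either direction, 2.65% as large as TPSB2 and 5.57% as large as FCER2.

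Only FCER1A had a higher mean in the RAO-affected horses of every slide. Its difference of means was 0.92 on slide 1, 0.35 on slide 2, 1.59 on slide 3 and 1.42 on slide 4. For FCER2 the RAO-affected mean was lower on slides 1 and 2, by -2.73 and -1.25, and higher on slides 3 and 4, by 0.23 and 0.57. The TPSB2 mean was lower by -0.99 on slide 1, level on slide 2 (-0.02) and higher on slides 3 and 4, by 1.24 and 3.03. The horses of the 2 groups overlapped on slides 2 and 4 for FCER1A, on slides 3 and 4 for FCER2 and on slide 2 for TPSB2. Each slide held 1 or 2 horses of a group, too few for a test within it, and whether the differences varied between slides was not tested.

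**Figure D3:**
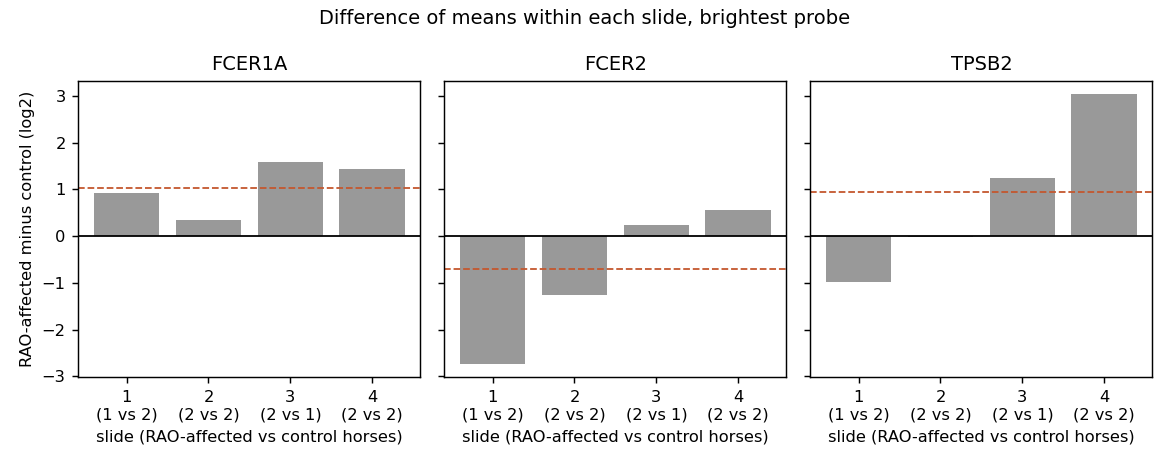
Difference of the mean log2 signal between RAO-affected and control horses (vertical axis) on each of the 4 slides, for the brightest probe of each gene, with the number of horses per group in brackets. The dashed line is the limma estimate with slide as a block. FCER1A is above 0 on all 4 slides, FCER2 changes sign from -2.73 on slide 1 to 0.57 on slide 4, and the TPSB2 value on slide 2 (-0.02) is too small to see as a bar.

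FCER1A and TPSB2, both known as mast cell transcripts, varied together across the 14 horses. With slide means removed, Pearson's r was 0.735 (permutation p = 0.00295, 0.00885 adjusted over the 3 pairs of genes) and Spearman's rho was 0.631 (permutation p = 0.0184, adjusted 0.0551). As measured, without removing slide means, r was 0.636 (permutation p = 0.0142, adjusted 0.0426) and rho was 0.565 (permutation p = 0.0390, adjusted 0.117). With group means removed as well as slide means, r was 0.695 (permutation p = 0.00619, adjusted 0.0186) and rho was 0.710 (permutation p = 0.00626, adjusted 0.0188). For all 3 pairs the permutations ran over the 14 horses and did not count the means removed. The p-values with means removed can therefore be too small. Without the 2 horses farthest from the FCER1A median, RAO-affected horse 14 and control horse 7, the slide-centred r fell to 0.549, and the r with group means also removed fell to 0.446. The size of the relation thus rests in part on those horses. Of 519 named genes, the highest 1% had a slide-centred r of at least 0.778 with FCER1A and 0.854 with TPSB2. Both lie above the 0.735 of this pair, and the part of mast cell content in it was not tested. Slides held 3 or 4 horses, too few for a correlation within each.

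FCER2 followed neither gene past the threshold after adjustment. Its slide-centred r with FCER1A was -0.164 (permutation p = 0.578, adjusted 0.578), with rho = -0.222 (p = 0.445, adjusted 0.445, permutation). With TPSB2 its r was 0.263 (permutation p = 0.364, adjusted 0.547) and rho was 0.327 (permutation p = 0.253, adjusted 0.380). Without the 2 horses farthest from the median on the x axis these r values were -0.317 (without RAO-affected horse 14 and control horse 7) and 0.160 (without control horse 3 and RAO-affected horse 4). With group means removed as well, r between FCER2 and TPSB2 was 0.453 (permutation p = 0.104, adjusted 0.155) and rho was 0.530 (permutation p = 0.0540, adjusted 0.0810), and r was 0.530 without control horse 3 and RAO-affected horse 12. Between FCER2 and FCER1A that r was 0.033 (permutation p = 0.912, adjusted 0.912) and rho was 0.086 (permutation p = 0.773, adjusted 0.773). Whether the correlations differed between pairs of genes was not tested. RAO-affected horse 14 was the highest of all horses for FCER1A and for TPSB2 and was in the lower part of the range for FCER2, at 11.14.

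**Figure D4:**
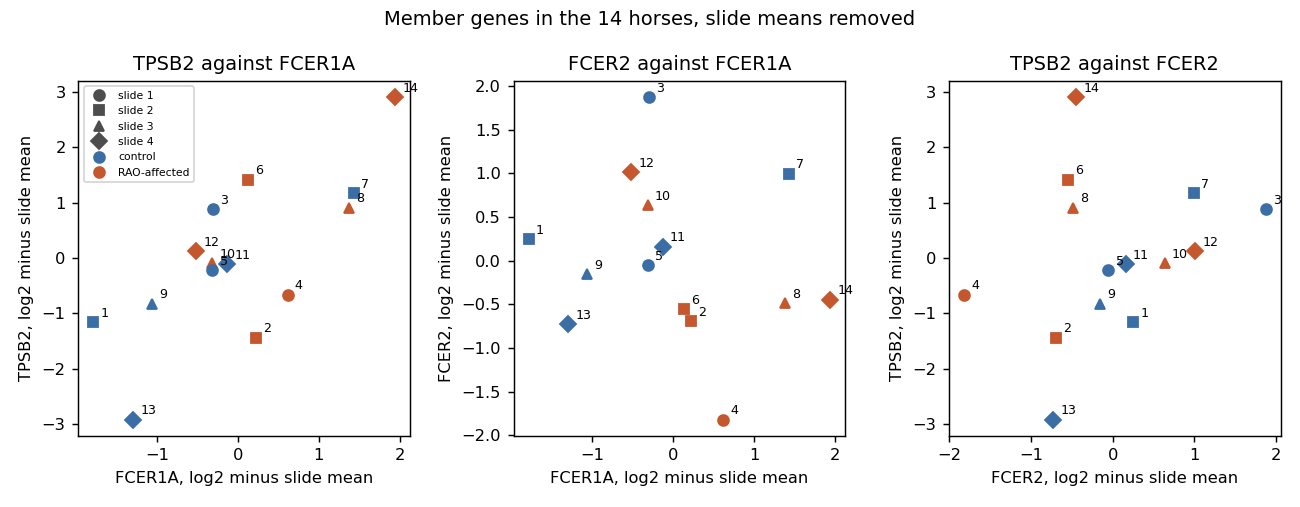
Log2 signal minus the slide mean of each pair of genes in the 14 horses (blue, control; orange, RAO-affected; marker shape, slide; numbers, horse). TPSB2 rises with FCER1A (r = 0.735), with control horses 1 and 13 at the low end and RAO-affected horse 14 at the high end, and the r values of FCER2 with FCER1A and TPSB2 on this scale are -0.164 and 0.263.

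Other genes of IgE biology and of the cells that could carry these transcripts were taken from 11 lists of 143 genes. Probes were named through the RefSeq transcripts of the horse gene table, which located 592 genes on the array and 20 of the listed ones. No gene of the eosinophil, neutrophil and plasma cell lists was located by this naming, which does not show that the array lacks probes for them. The beta and gamma chains of the high-affinity receptor (MS4A2 and FCER1G) and its kinases LYN, FYN and SYK were not analysed here. Among the 530 named genes tested, each by its brightest probe, 13.4% had an unadjusted p of at most 0.05, 8.3% higher and 5.09% lower in RAO-affected horses.

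Of 29 genes on the IgE receptor pathway list, 7 were located and 6 passed the filter. Of these, 3 were lower in RAO-affected horses at the unadjusted threshold and none was higher, but none passed adjustment. The 6 genes include FCER1A and FCER2, and 4 are separate from the genes under study. The median difference of the 6 was -0.41, against 0.03 over all named genes, as a description without a test. IL4, the cytokine that directs B cells to IgE and raises CD23, differed by -1.07, with a limma p of 0.0214 unadjusted and 0.382 adjusted. Its 17 probes all differed in this direction, by -1.72 to -0.65. Its brightest probe exceeded background clearly in 5 RAO-affected and 7 control horses. Its receptor chain IL4R differed by -0.35, with a limma p of 0.0462 unadjusted and 0.414 adjusted and 1 array saturated. CD40, the B cell receptor for T cell help, differed by -0.48, with a limma p of 0.00940 unadjusted and 0.364 adjusted. IL5, the eosinophil growth factor, differed by -0.09, with an adjusted limma p of 0.827. IL9, which supports mast cells, was well above background on 1 array of each group and was not tested.

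On the mast cell and basophil list 3 of 27 genes were located, namely FCER1A, TPSB2 and the histamine receptor HRH1, and none passed the unadjusted threshold. HRH1 differed by 0.19, with a limma p of 0.248 unadjusted and 0.625 adjusted. Mast cell proteases other than TPSB2 (CMA1, CPA3) and the growth factor receptor KIT were not analysed here, so the label of mast cell tryptase rests on TPSB2 alone.

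The B cell list had 3 of 18 genes located, namely FCER2 itself, CD40 and CD74. All were lower in RAO-affected horses, and only 2 of them are separate from the genes under study. The median difference over all named genes tested was 0.03. CD40 is given above, and CD74, the MHC class II chaperone, differed by -0.32, with a limma p of 0.0484 unadjusted and 0.417 adjusted and 3 arrays saturated. The mean log2 signal of the 3 genes, FCER2 included, was 12.80 to 13.85 in RAO-affected and 13.31 to 14.54 in control horses. The located T cell genes CD2, IL7R and CD28 differed by -0.31, -0.18 and -0.35, none past the threshold. The part of B cell content in the FCER2 difference was not tested.

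The dendritic cell list and the macrophage and monocyte list had 3 located markers of the myeloid cells that can carry FCER1A. Of these, CD14 and ITGAX were higher in RAO-affected horses at the unadjusted threshold, which 8.3% of named genes tested passed in that direction. CD14, the monocyte and macrophage co-receptor for endotoxin, differed by 1.15, with a limma p of 0.00120 unadjusted and 0.355 adjusted and 1 array saturated. ITGAX, the dendritic cell integrin CD11c, differed by 0.45, with a limma p of 0.0108 unadjusted and 0.369 adjusted. Its 7 probes differed by 0.27 to 0.45. The macrophage marker CD68 differed by 0.28, with an adjusted limma p of 0.511 and 2 arrays saturated. The 2 located genes of the macrophage and monocyte list averaged 13.84 to 15.66 in RAO-affected and 13.35 to 15.89 in control horses, ranges that overlap and that include the saturated values. Of the 3 endothelial genes located, SELP (P-selectin) differed by 1.52, with a limma p of 0.0229 unadjusted and 0.383 adjusted. CAV1 and PECAM1 differed by 1.16 and 0.55, with unadjusted limma p-values of 0.0522 and 0.120. The lung epithelial gene located, SFTPA1, differed by 0.34, with an adjusted limma p of 0.811. The part of these cell types in the FCER1A difference was not tested.

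**Figure D5:**
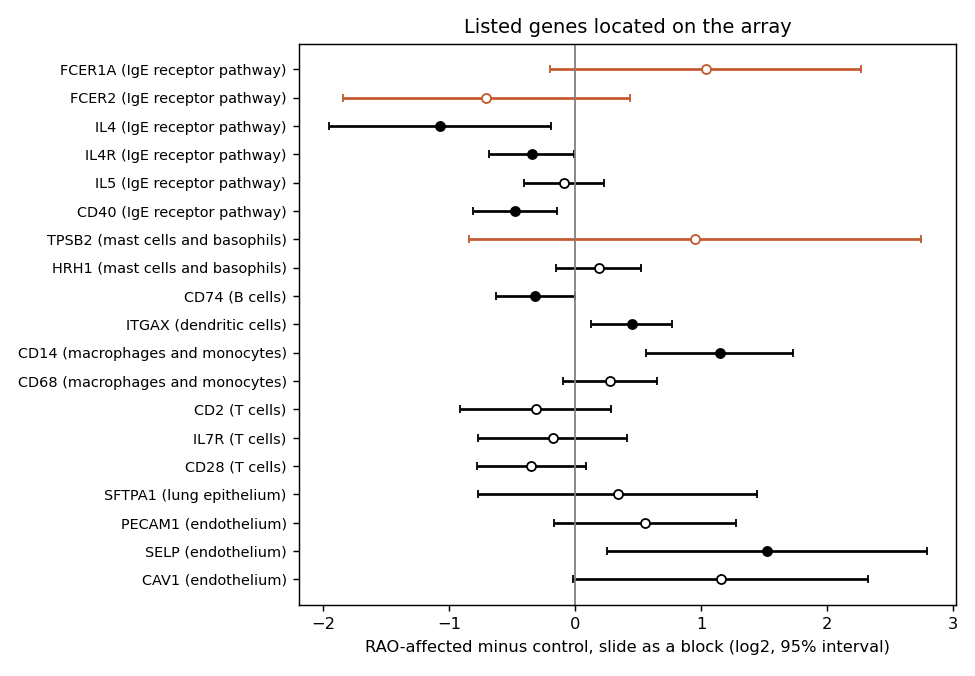
Difference in log2 signal between RAO-affected and control horses with slide as a block (horizontal axis, with 95% intervals) for the 19 listed genes located and tested, each with a list it was taken from. Orange marks FCER1A, FCER2 and TPSB2, and filled points have an unadjusted limma p of at most 0.05. The filled points are IL4, IL4R, CD40 and CD74 below 0 and ITGAX, CD14 and SELP above 0.

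Among the named genes, those whose slide-centred signal was most like that of each gene over the 14 horses were listed as a description, without a test. For FCER1A they were OR6C328 (r = 0.883), OR4C11E (r = 0.798) and CSN3 (r = 0.793), that is, the olfactory receptor genes OR6C328 and OR4C11E and the kappa-casein gene. For FCER2 they included DOCK8 (r = 0.822) and RNF19A (r = 0.786). DOCK8 is needed for lasting antibody responses, and its blocked difference was -0.29, with an unadjusted limma p of 0.0389. For TPSB2 they were PRICKLE1 (r = 0.886), BHLHE40 (r = 0.885) and CPEB4 (r = 0.882). Each comparison ran over 519 genes and the points share arrays and normalization, and the highest 1% of the genes had an r of at least 0.778 with FCER1A, 0.742 with FCER2 and 0.854 with TPSB2.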

How the data were processed

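Mediastinal lymph node RNA was amplified, Cy3-labelled and hybridized to 14 one-colour Agilent arrays, 1 per horse. The authors deposited scanner output with an intensity per spot, background-subtracted by Feature Extraction 10.5.1.1 per the file headers (9.1 per the submitters' processing notes). They also deposited a table of ratios, each normalized signal over that probe's median. The methods describe a smaller array than the 43603 probes of these files. Flags in the deposited files marked spots as outliers, saturated or well above background.

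Control spots and outlier spots (1007 over all arrays, 5 of them FCER2 spots) were left out, spots of a probe were averaged as log2, and arrays were quantile normalized. The brightest probe stood for a gene. Limma 3.58.1 (lmFit, eBayes, R 4.3.3) compared groups with slide as a fixed block, unpaired, since no source used here names the pairs of the study's paired test. The named genes were all probes of the 3 genes, the located genes of the lists and the 3 most alike named genes, of which 1 for FCER2 is not reported here. The members and lists were chosen with earlier results of these data known. The fit was tested on simulated data. Figures were drawn with matplotlib 3.10.9.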

Additional observations from a re-analysis of the deposited data

Results flagged for a closer look

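Control horse 7 lay apart from the other 6 control horses in the brighter FCER1A probe, at 14.09 against 12.10 for the nearest. The gap was 0.618 of the group's range, above Dixon's critical value for 7 samples. It was the only such case among 18 sets of 7 horses (9 probes in 2 groups), and chance gives about 1 in 20. The 18 sets are not separate, since probes of a gene followed each other across the same horses. For the FCER1A probes r was 0.993, and for the bright FCER2 probes it was 0.992 to 0.999 with the brightest. In the dimmer FCER1A probe the same horse was also the highest control, at 13.09, with a ratio of 0.562, just below that value.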

How the results depend on the processing

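The signs of the FCER1A, FCER2 and TPSB2 differences held under all 13 other settings and in all 14 fits that left out 1 horse. None passed an unadjusted p of 0.05, except FCER1A without control horse 7. With slide ignored the differences were 1.04, -0.74 and 0.77. FCER2 was -0.21 with array weights and -0.20 without slide 1. The unpaired form of the methods' test called 0 probes after adjustment and 489 at 2-fold and its unadjusted threshold. Leaving out 1 horse gave 0.72 to 1.47 for FCER1A, -1.01 to -0.20 for FCER2 and 0.41 to 1.44 for TPSB2.

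The count of probes at 2-fold and an unadjusted p of at most 0.05 was 543 of 38674, or 1.4% (411 higher, 132 lower). It fell to 252 (0.652%) with normexp background correction (217 higher, 35 lower) and rose to 1080 (2.79%) without slide 1. With the filter at all 14 arrays it was 261 of 30978 probes tested (0.843%). Leaving out 1 horse gave 330 (without RAO-affected horse 14) to 1143 (without RAO-affected horse 4). After adjustment the count was 0 in each of these fits except without control horse 5, where it was 8. The causes were not tested. Normexp used median spot signals, as the files hold no mean signals. No paired analysis was possible because the groups share no replicate numbers and no source used here names the pairs. The number of arrays limits precision.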
